A study of Mus musculus with 36 samples.

Results

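The genes described here are the 36 aminoacyl-tRNA synthetases of the mouse that were listed by symbol, 20 for cytosolic enzymes and 16 for mitochondrial enzymes (symbols ending in 2), among the 54232 genes of the count table. All 36 were found by identifier, and all 36 were among the 14932 genes that passed the filter on low counts. Raw counts of the members ran from 26 (Pars2) to 18184 (Lars2) in a single library. The members were taken by symbol and not by a measured value, although earlier results of these data were known when the list was made.

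RNA was sequenced from 12 female C57BL6 mice on a purified, L-amino acid defined diet, which they received for 3 to 5 weeks from an age of 10 to 12 weeks. HNKO mice (6) carried floxed Nampt alleles and the Alb-Cre transgene, whose albumin promoter is active in hepatocytes, and WT mice (6) were littermates with the floxed alleles but no Cre. Each mouse gave a piece of the median lobe taken during perfusion (liver, L), the cell suspension from the rest of the collagenase-digested liver (CS) and hepatocytes from that suspension after 24 h of culture (primary hepatocytes, PH). Comparisons with liver therefore also compare lobes, and other liver cells keep an intact Nampt gene in HNKO mice.

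Aminoacyl-tRNA synthetases join each amino acid to its own transfer RNA, the step that fixes the genetic code during translation. Cytosolic enzymes supply the ribosomes that read nuclear mRNAs, and a separate, nuclear-encoded set supplies the ribosomes inside mitochondria. Glycyl- and lysyl-tRNA synthetase (Gars, Kars) are exceptions, since a single gene makes both forms of each, and mitochondria lack a glutaminyl enzyme of their own. In the cytosol, several of the enzymes (Eprs, Iars, Lars, Qars, Mars1, Kars, Rars and Dars) sit together in the multisynthetase complex on the scaffold proteins encoded by Aimp1, Aimp2 and Eef1e1. When uncharged transfer RNA builds up or the endoplasmic reticulum is stressed, kinases phosphorylate eIF2alpha and the transcription factor ATF4 is made, and many cytosolic synthetase genes are known ATF4 targets.

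The 35 libraries used held 8698735 to 20350519 counts. The WT liver of mouse 558 was left out of every comparison unless said otherwise. It held 2547422 counts, and its mean Spearman correlation with its own sample type was 0.7808 against 0.9414 to 0.9829 for the others. Nampt, the targeted gene, was lower in HNKO in every sample type, by 0.99 ± 0.21 (log2 fold change ± SE) in L, 1.23 ± 0.20 in CS and 1.34 ± 0.20 in PH (adjusted p = 0.0142, 0.00585 and 0.000441, edgeR quasi-likelihood test with Benjamini-Hochberg adjustment). Hepatocyte markers (8 genes, Alb among them) summed to 152110.1 to 187436 CPM (a library's counts scaled to a common total with TMM factors, the unit of all levels here) in WT liver, to 36402 to 58715 in WT and to 30423 to 45876 in HNKO primary hepatocytes. All 8 were lower in PH than in L in both genotypes, beside 38.2% (WT) and 38.5% (HNKO) of all tested genes. Kupffer cell and macrophage markers such as Clec4f and Vsig4 were near 0 in PH (mean 0.9 and 0.127 CPM in WT), while Cd68, of the same list, was at 288 CPM. In bulk RNA, fewer cells of a type and less RNA per cell cannot be told apart.

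In liver, levels per kilobase of coding transcript differed between the classes. The 20 cytosolic genes had a median of 19.8 CPM per kilobase in WT liver (6.85 for Vars to 42.7 for Nars), and the 16 mitochondrial genes a median of 6.61 (0.327 for Mars2 to 30.2 for Lars2). In WT primary hepatocytes the cytosolic median was 37.4 and the mitochondrial median 6.69. Vars, the valyl enzyme, was in place 28 of the 36 in WT liver and in place 5 in WT primary hepatocytes. Gars moved from place 10 to place 1, at 131 CPM per kilobase, ahead of Nars at 116. Tars, the threonyl enzyme, went the other way, from place 4 to place 14. Summed over the 20 genes, the cytosolic enzymes took 1275 ± 102 CPM in WT liver (SD, n = 5), 1437 ± 135 in WT cell suspension (n = 6) and 2682 ± 364 in WT primary hepatocytes (n = 6). The mitochondrial enzymes other than Lars2, whose counts are treated separately, took 309.9 ± 16.2, 324 ± 8.20 and 343 ± 31.8 CPM in the same groups.

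The first comparison asks what dissociation of the liver did to these genes. No synthetase differed between CS and L in either genotype by the edgeR quasi-likelihood test. Among all 14932 tested genes, 3.5% were called in WT and 5.37% in HNKO. At an unadjusted p under 0.05, 4 of the 36 differed in WT and 4 in HNKO (15.5% and 17.4% of all tested genes), and DESeq2 called 1 in WT (Eprs) and 0 in HNKO. Without mouse 554 edgeR called 1 in HNKO, Vars. The median log2 fold change of the 36 was 0.09 in WT and 0.06 in HNKO. In the same comparison, 5 of 30 genes of the integrated stress response list were called higher in CS of WT mice, among them Atf3 (5.90 on the log2 scale) and Gdf15 (3.29).

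The second comparison asks what the culture did. In WT primary hepatocytes 17 of the 20 cytosolic synthetases were higher than in liver and none was lower (37.5% and 38.2% of all tested genes were called higher and lower), with a median log2 fold change of 0.94 against 0.01 over all tested genes. The 3 cytosolic genes that did not pass were Aars (0.21 ± 0.13), Yars (0.25 ± 0.12) and Tars (-0.27 ± 0.19). In HNKO 16 of 20 were higher and 1 was lower (37.7% and 38.5% of all tested genes), with a median of 0.86. For 16 of the 20 genes in WT and 14 in HNKO, the PH and L libraries did not overlap, beside 60.8% and 53.9% of all tested genes. Of the mitochondrial genes, 7 were higher and 4 lower in WT and 7 were higher and 3 lower in HNKO, with medians of -0.06 and 0.15. Of the 7 in HNKO, the call of Lars2 was lost without mouse 562. With scaling by total counts alone, which took the median of all genes in WT from 0.01 to 0.56, the mitochondrial split in WT was 12 higher and 1 lower and the cytosolic split 19 and 0. Under TMM, 19 cytosolic and 7 mitochondrial genes lay above the median of all genes in WT, and 17 and 10 in HNKO. RLE and total counts alone gave the same counts. Scaling moves all genes by nearly the same amount, so these counts could hardly change and are no check of the split.

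**Figure D1:**
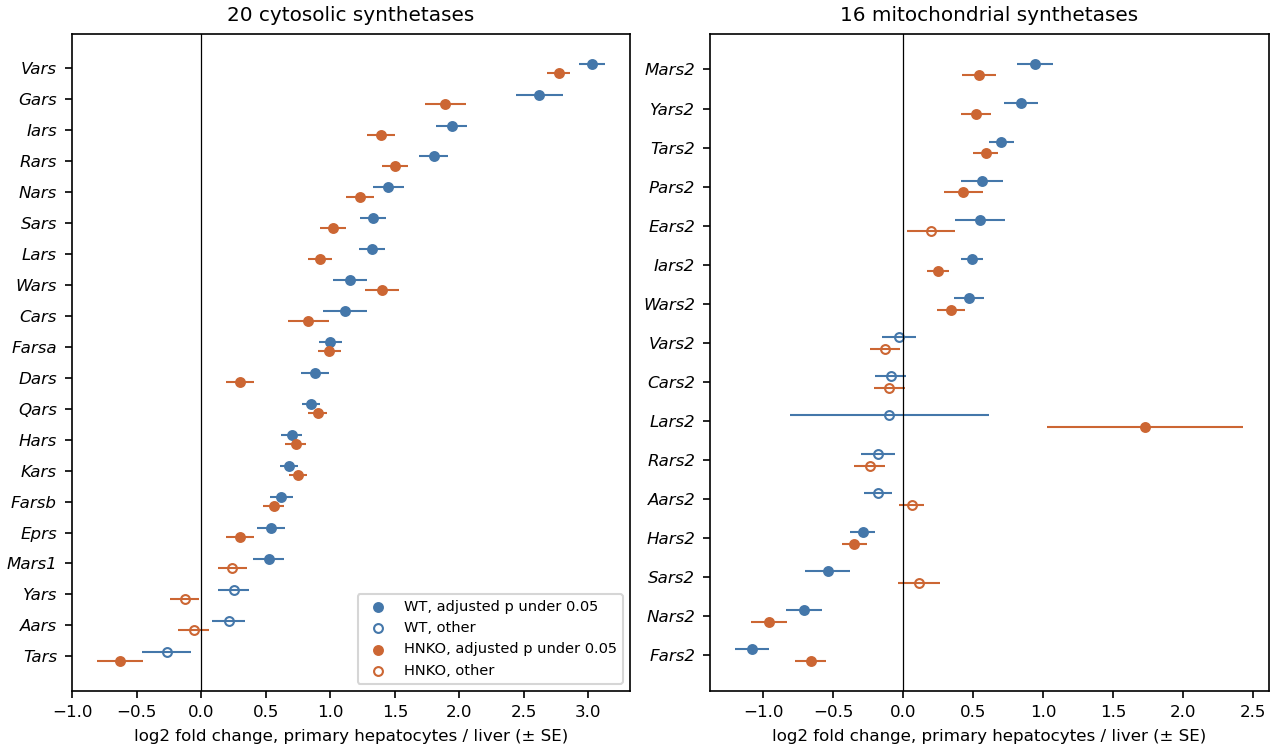
Log2 fold change of primary hepatocytes against liver (x axis, ± SE) for the 20 cytosolic (left) and 16 mitochondrial synthetases (right), in WT (blue, 6 PH and 5 L libraries) and HNKO (orange, 6 and 6), with filled points for an adjusted p under 0.05. In WT 17 cytosolic genes lie to the right with filled points and none to the left, while the mitochondrial genes lie on both sides, of which 7 lie above 0 in WT and 14 with scaling by total counts alone.

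Vars (chr17:35000987-35016322, plus strand, GRCm38), for valyl-tRNA synthetase, rose most. It stood at 25.8, 28.9, 28.5, 29.0 and 29.5 CPM in the WT liver libraries. In WT primary hepatocytes it ran from 196 over a median of 210.4 to 292 CPM, and in HNKO from 199 over 212 to 243. No PH library overlapped any L or CS library (26.1 to 33.9 CPM in WT and 34.4 to 40.8 in HNKO cell suspension). The log2 fold change against liver was 3.03 ± 0.10 in WT and 2.77 ± 0.09 in HNKO (adjusted p = 2.08e-22 and 2.92e-22).

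Gars (chr6:55038007-55079500, plus strand), for glycyl-tRNA synthetase, was next. WT liver held 44.3, 47.6, 47.7, 71.6 and 43.6 CPM, with mouse 556 above the rest. WT primary hepatocytes held 178 to 458 CPM (median 304) and HNKO primary hepatocytes 169.7 to 264 CPM (median 219.6). The culture groups did not overlap liver or cell suspension in either genotype. The log2 fold change against liver was 2.62 ± 0.18 in WT and 1.89 ± 0.16 in HNKO (adjusted p = 9.99e-15 and 2.73e-12). Iars, for isoleucyl-tRNA synthetase, held 45.8, 43.6, 56.3, 49.5 and 45.6 CPM in WT liver and 152 to 242 (median 179) in WT culture, a log2 fold change of 1.94 ± 0.12 (adjusted p = 2e-15).

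Of the multisynthetase complex, 8 of 8 enzymes were higher in WT primary hepatocytes than in liver and 7 of 8 in HNKO, Mars1 (0.24 ± 0.11) being the one that did not pass. The other 12 cytosolic genes had 9 higher in each genotype. Of all tested genes, 37.5% were called higher in WT and 37.7% in HNKO. Inside the complex, the changes ran from 0.52 ± 0.12 for Mars1 and 0.54 ± 0.11 for Eprs, which carries both the glutamyl and the prolyl enzyme in a single protein, to 1.80 ± 0.11 for Rars and 1.94 ± 0.12 for Iars. Lars was at 1.32 ± 0.10, Dars at 0.88 ± 0.11, Qars at 0.85 ± 0.07 and Kars at 0.68 ± 0.07, all in WT. The scaffold genes rose as well, with Aimp2 at 1.96 ± 0.14, Eef1e1 at 1.34 ± 0.13 and Aimp1 at 0.88 ± 0.09. Aimp2 went from 7.96 to 11.6 CPM in WT liver to 34.6 to 41.9 CPM in WT primary hepatocytes.

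Outside the complex, Nars rose by 1.45 ± 0.12, Sars by 1.33 ± 0.10, Wars by 1.15 ± 0.13 and Cars by 1.11 ± 0.17 in WT. Farsa and Farsb, the genes of the alpha and beta subunits that form cytosolic phenylalanyl-tRNA synthetase together, rose by 1.00 ± 0.09 and 0.62 ± 0.09. Hars rose by 0.70 ± 0.08.

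Tars, Aars and Yars, the threonyl, alanyl and tyrosyl enzymes, were not called higher in culture than in liver in the main fit. Yars was called higher in WT when mouse 544, 546, 548 or 558 was left out. With total counts alone, Aars and Yars were called higher in WT (0.75 and 0.79) and in HNKO (0.41 and 0.32). The median of all genes was then 0.56 in WT and 0.46 in HNKO. Tars held 151, 121, 124, 193 and 111 CPM in WT liver, 134 to 231 (median 148) in WT cell suspension and 93.3 to 140.4 (median 116) in WT primary hepatocytes. The libraries of L and PH overlapped. Tars was called lower in PH than in CS in both genotypes (-0.55 ± 0.18 in WT and -0.72 ± 0.18 in HNKO, adjusted p = 0.00691 and 0.000625) and lower than in L in HNKO (-0.63 ± 0.18, adjusted p = 0.00233). With total counts alone these calls were lost, at 0.11 and -0.09 against CS and -0.17 against L. Whether the change differs between the genotypes was tested and not called.

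**Figure D2:**
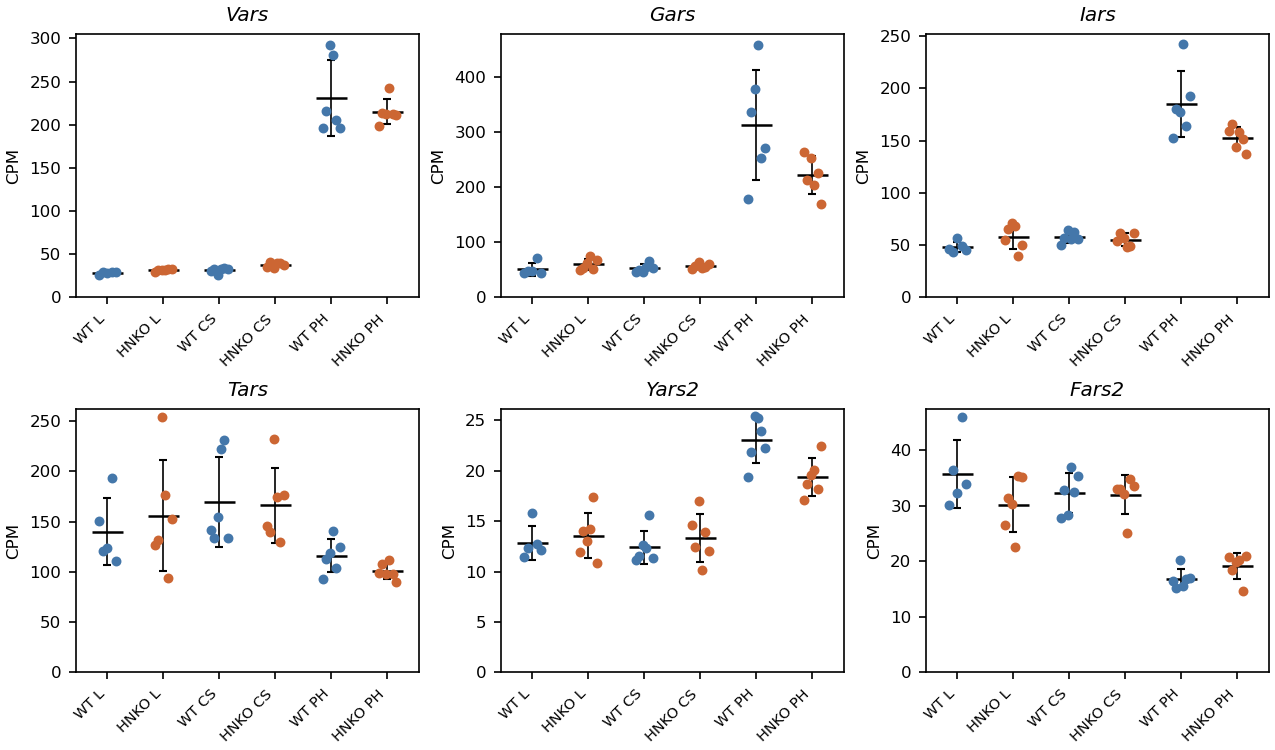
Level in CPM (y axis, from 0) of 6 synthetases in each of the 35 libraries, by genotype and sample type (x axis), where points are libraries, horizontal lines means and vertical bars SD. Vars, Gars and Iars are higher in every cultured library than in any liver or cell suspension library, and Yars2 is higher in culture. Fars2 is lower in culture and keeps its sign with total counts alone. Tars is called lower in PH than in CS in both genotypes, but lower than in L in HNKO only, and its PH and L libraries overlap in WT. With total counts alone, Tars turns to 0.11 against CS in WT.

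Promoter windows are shown for 4 of the 5 members found to hold the C/EBP-ATF composite element, the site class through which ATF4 is known to act, because these 4 include the strongest risers with a match (Gars and Iars) and genes with a match that were not called higher (Aars and Tars). RefSeq windows on GRCm38.p6, from 250 bases before to 50 bases after the start of the transcript, were found for 27 of the 36 members (13 cytosolic, 14 mitochondrial), and were not found for Cars, Hars, Lars, Nars, Rars, Vars, Wars, Hars2 and Pars2. The letters TGATGNAA were searched on both strands (TTNCATCA on the other), as was the E-box CACGTG. The element was present in 5 members, all cytosolic, namely Gars, Iars, Aars, Tars and Yars, and in 3.97% of all 32851 promoter windows. The E-box was present in Aars, Farsb, Iars, Tars and Ears2, and in 7.15% of all windows. Capitals mark matches to the composite element.
Gars (chr6:55037751-55038050, plus strand): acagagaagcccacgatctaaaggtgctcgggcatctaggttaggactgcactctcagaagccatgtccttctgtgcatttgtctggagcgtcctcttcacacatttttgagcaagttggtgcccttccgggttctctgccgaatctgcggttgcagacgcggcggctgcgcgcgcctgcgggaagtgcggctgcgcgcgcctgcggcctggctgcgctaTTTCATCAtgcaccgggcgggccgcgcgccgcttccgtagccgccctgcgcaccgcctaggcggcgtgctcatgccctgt
Iars (chr13:49681880-49682179, plus strand): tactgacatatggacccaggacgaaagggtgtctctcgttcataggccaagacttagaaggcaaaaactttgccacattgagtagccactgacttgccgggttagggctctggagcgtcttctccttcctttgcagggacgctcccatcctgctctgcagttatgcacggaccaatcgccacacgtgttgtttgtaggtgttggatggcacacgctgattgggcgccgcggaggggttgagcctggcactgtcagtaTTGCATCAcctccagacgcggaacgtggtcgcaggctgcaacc
Aars (chr8:111033592-111033891, plus strand): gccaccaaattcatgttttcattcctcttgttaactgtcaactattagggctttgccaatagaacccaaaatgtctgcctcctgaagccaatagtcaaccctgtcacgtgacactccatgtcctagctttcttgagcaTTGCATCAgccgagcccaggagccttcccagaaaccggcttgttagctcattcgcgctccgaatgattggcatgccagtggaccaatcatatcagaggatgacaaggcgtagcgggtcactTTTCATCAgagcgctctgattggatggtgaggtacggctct
Tars (chr15:11399609-11399908, minus strand): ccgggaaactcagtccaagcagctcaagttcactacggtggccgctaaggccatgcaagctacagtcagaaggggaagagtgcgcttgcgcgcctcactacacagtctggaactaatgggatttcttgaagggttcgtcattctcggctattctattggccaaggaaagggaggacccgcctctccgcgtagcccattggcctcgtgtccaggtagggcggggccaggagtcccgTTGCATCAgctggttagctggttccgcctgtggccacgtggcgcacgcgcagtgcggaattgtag

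The windows of Gars, Iars and Tars hold 1 match each and that of Aars holds 2. The matches of Gars and Tars begin 30 and 15 bases before the start of the transcript, and that of Iars begins 7 bases after it. Yars, whose match lies on the plus strand 3 bases after its start, was at 0.25 ± 0.12 in WT culture against liver. Genes with a match thus ran from -0.27 ± 0.19 (Tars) over 0.21 ± 0.13 (Aars) to 2.62 ± 0.18 (Gars). A match is a stretch of letters and was not tested as a binding site.

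Among the mitochondrial enzymes, Mars2, Yars2 and Tars2 rose most in WT culture. Mars2, for the methionyl enzyme, held 3.71, 3.39, 4.0, 4.21 and 3.16 CPM in WT liver and 6.04 to 8.89 (median 6.89) in WT primary hepatocytes, a log2 fold change of 0.94 ± 0.13 (adjusted p = 1.27e-07). Yars2, for the tyrosyl enzyme, held 11.4, 12.3, 15.8, 12.7 and 12.1 CPM in WT liver and 19.4 to 25.4 (median 23.2) in culture (0.84 ± 0.12). Tars2, for the threonyl enzyme, held 29.0, 30.1, 28.7, 29.9 and 23.0 CPM in WT liver and 38.6 to 51.2 (median 46.0) in culture (0.70 ± 0.09). None of these 3 overlapped between PH and L in WT. Pars2, the prolyl enzyme with the lowest counts, held 4.25, 3.89, 2.79, 3.53 and 3.25 CPM in WT liver and 4.10 to 6.17 (median 5.31) in culture, where the groups overlapped (0.56 ± 0.15, adjusted p = 0.00113). Ears2, Iars2 and Wars2 were the other 3 called higher in WT, at 0.55 ± 0.18, 0.49 ± 0.08 and 0.47 ± 0.11.

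Fars2 (chr13:36117412-36726280, plus strand), for mitochondrial phenylalanyl-tRNA synthetase, fell most in WT. WT liver held 30.2, 36.4, 32.3, 45.9 and 33.9 CPM and WT primary hepatocytes 15.1 to 20.3 (median 16.7), without overlap. The log2 fold change was -1.08 ± 0.12 in WT and -0.66 ± 0.11 in HNKO (adjusted p = 5.48e-10 and 3.5e-06), and it stayed negative with total counts alone, at -0.53 in WT and, without a call, at -0.19 in HNKO. Nars2, for the asparaginyl enzyme, held 15.8, 16.3, 18.5, 14.8 and 14.3 CPM in WT liver and 6.40 to 12.2 (median 10.3) in WT culture (-0.71 ± 0.13 in WT, -0.96 ± 0.13 in HNKO), and was negative under every scaling, without a call in WT under total counts alone (-0.17). Sars2, for the seryl enzyme, held 10.6, 9.10, 10.2, 12.9 and 10.1 CPM in WT liver and 6.10 to 8.59 (median 6.89) in WT culture, a fall of 0.54 ± 0.16 that turned to 0.01 with total counts alone. In HNKO Sars2 was at 0.11 against liver, without a call. Hars2 was called lower in both genotypes (-0.29 ± 0.09 and -0.35 ± 0.09), values that turned to 0.26 and 0.10 with total counts alone. Fars2 shares 501 exon bases with Nrn1, a gene with 210107 counts in these libraries against 14333 for Fars2, and 115 with Lyrm4, both on the opposite strand. No source used here says whether strand was used in counting, so the level of Fars2 is uncertain. The same holds for Cars2 (422 bases shared with Naxd), Iars2 (2034 with Rab3gap2), Ears2 (89 with Ubfd1), Mars1 (68 with Ddit3) and Yars (30 with C77080).

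Set side by side by amino acid, the cytosolic enzyme had the higher log2 fold change in 11 of 16 pairs in WT and in 10 of 16 in HNKO, and in 10 of 15 in either genotype with the leucyl pair left out. In HNKO that pair (Lars at 0.92, Lars2 at 1.73) rests on the culture of mouse 562, without which Lars2 was at 0.06. The widest gap was that of valine, with Vars at 3.03 and Vars2 at -0.03 in WT. For asparagine, Nars was at 1.45 and Nars2 at -0.71, for phenylalanine Farsa was at 1.00 and Fars2 at -1.08, and for arginine Rars was at 1.80 and Rars2 at -0.18. The pairs for threonine (Tars at -0.27, Tars2 at 0.70), tyrosine (Yars at 0.25, Yars2 at 0.84) and methionine (Mars1 at 0.52, Mars2 at 0.94) went the other way. So did Eprs with Ears2 and with Pars2 in WT, by only -0.01 and -0.02 (cytosolic minus mitochondrial). Both of these pairs use the same Eprs value. Hars and Hars2 lie head to head and share 195 exon bases on opposite strands, so a part of the counts of either could belong to the other. These differences between genes are descriptions with no test.

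**Figure D3:**
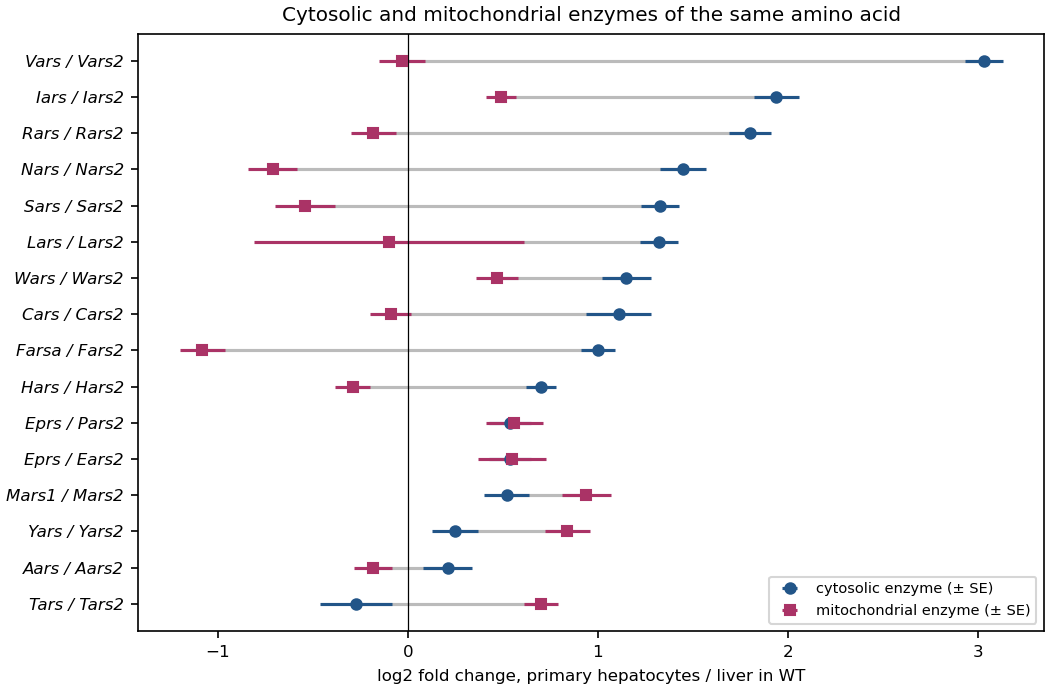
Log2 fold change of WT primary hepatocytes against WT liver (x axis, ± SE) for the 16 pairs of a cytosolic (circles) and a mitochondrial enzyme (squares) of the same amino acid, in order of the cytosolic value, where Eprs is set against both Ears2 and Pars2 and Farsa stands for the phenylalanyl enzyme. The cytosolic enzyme lies further to the right in 11 pairs.

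Primary hepatocytes were also set against the cell suspension from which they were plated. In WT 17 of 20 cytosolic genes were higher in PH than in CS and Tars was lower, against 38.3% and 36.8% of all tested genes called higher and lower. In HNKO 15 were higher and Tars was lower, against 38.1% and 37.6%. Of the mitochondrial genes 7 were higher and 6 lower in WT, and 6 were higher and 4 lower in HNKO, splits that became 12 and 1 and 14 and 1 with total counts alone. The medians of the cytosolic genes were 0.93 and 0.79. Vars was at 2.88 ± 0.09 in WT and 2.51 ± 0.09 in HNKO, and Gars at 2.57 ± 0.17 and 1.96 ± 0.16. Eprs, at 0.21 ± 0.11 in WT, was higher in PH than in L but not called against CS. The L and CS comparisons share the PH libraries.

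Other genes of the same machinery moved in culture as follows. Of all tested genes, 37.5% were called higher and 38.2% lower in PH than in L in WT, and 37.7% and 38.5% in HNKO. All 6 cytosolic elongation factors of the list were higher in PH than in L in both genotypes, led in WT by Eef1g (1.52 ± 0.09) and Eef1b2 (1.23 ± 0.10), subunits of the exchange factor that recharges eEF1A. Of 9 mitochondrial translation factors, 1 was higher and 5 lower in WT (1 and 6 in HNKO), with Mtif3, an initiation factor, at -1.40 ± 0.10 and Mtrf1 at -1.18 ± 0.13, whereas total counts alone gave 4 higher and 2 lower in WT. In the route by which mitochondria make glutaminyl transfer RNA, Gatb, a subunit of the amidotransferase, was at -1.27 ± 0.11 in WT, while Qrsl1 (0.31 ± 0.16) and Gatc (-0.19 ± 0.11) did not pass. Trnt1, which adds the CCA end to transfer RNAs, was at 0.67 ± 0.10.

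Of 30 genes of the integrated stress response and ATF4 list, 25 were higher and 2 lower in WT primary hepatocytes than in liver (24 and 3 in HNKO), with medians of 2.11 and 1.57. For these and the lists below, the shares of all tested genes called higher and lower were 37.5% and 38.2% in WT, and 37.7% and 38.5% in HNKO. Slc3a2, part of amino acid exchangers, was at 2.63 ± 0.11, Eif4ebp1, an inhibitor of cap-dependent translation, at 2.42 ± 0.11, Sesn2 at 2.40 ± 0.15 and Ppp1r15a, which brings the phosphatase to eIF2alpha, at 2.32 ± 0.17. The genes that went down were Atf5 (-0.73 ± 0.22) and Fgf21 (-4.76 ± 0.65), a hormone of the liver. Of the 4 eIF2alpha kinases, Eif2ak2 was at 2.41 ± 0.12, Eif2ak3 at 1.04 ± 0.15 and Eif2ak4, which senses uncharged transfer RNA, at 0.40 ± 0.10, while Eif2ak1 was at -0.39 ± 0.08 and turned to 0.17 with total counts alone. All 8 genes of the Myc and ribosome biogenesis list were higher in both genotypes, with Npm1 at 2.23 ± 0.11 and Nop56 at 2.69 ± 0.16 in WT. Several of these genes and the cytosolic synthetases changed in the same libraries, and whether one followed from the other was not tested. Wars is known as a gene induced by interferon-gamma. Of 12 interferon-stimulated genes, 10 were higher in WT and 11 in HNKO, with Isg15 at 3.95 ± 0.25 and Tap1 at 2.08 ± 0.15 in WT.

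The third comparison asks what the loss of Nampt did. In liver no synthetase was called between HNKO and WT by edgeR (1.51% of all tested genes were called), 7 of 36 had an unadjusted p under 0.05 (17.2% of all tested genes), and DESeq2 called 1, Rars, as edgeR did without mouse 562. In the cell suspension none was called (0.0268% of all genes), 3 had an unadjusted p under 0.05 (14.3% of all tested genes), and DESeq2 called 0. In primary hepatocytes 5 of the 36 were called, of which 1 was higher and 4 were lower in HNKO, beside 5.14% and 7.67% of all tested genes. DESeq2 also called Sars2 higher (0.44, adjusted p = 0.0274) and Qars lower (-0.16, adjusted p = 0.0373) there. Sars2, at 0.45 in the main edgeR fit without a call, was called by edgeR with RLE factors (adjusted p = 0.0479) and total counts alone (adjusted p = 0.0169). A count of 5 of 36 lies near the share of the table as a whole and is no result about these genes as a set. The medians over the 36 genes were 0.06 in L, 0.03 in CS and -0.10 in PH. In L and PH every member overlapped between the genotypes, and in CS every member but Vars (26.1 to 33.9 CPM in WT, 34.4 to 40.8 in HNKO). Over all tested genes, 3.5% in L, 2.04% in PH and 0.743% in CS had groups that did not overlap. The count in PH moved with single mice, from 1 call without mouse 554 and 2 without mouse 552 to 10 without mouse 544, and was 3 without mouse 542, 548, 556, 558, 562 or 566. In L, scaling by total counts alone gave 8 calls, all higher in HNKO, and moved the median of all tested genes to 0.18.

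Dars (chr1:128363707-128417368, minus strand), for aspartyl-tRNA synthetase, was the member with the firmest call. In WT primary hepatocytes it ran from 101 over a median of 152 to 186 CPM, and in HNKO from 89.9 over 102 to 118. All 6 HNKO libraries lay below the WT median, and the groups overlapped through a single WT library at 101 (mouse 544), which also held the least Gars of the WT cultures. The log2 fold change was -0.52 ± 0.11 (adjusted p = 0.00211), and over 18 alternatives the adjusted p ran from 3.77e-05 to 0.0648, the latter when only the 2 groups compared were fitted. In liver Dars stood at 77.5, 80.6, 88.2, 82.4 and 80.7 CPM in WT and at 79.1 to 91.7 (median 85.7) in HNKO (0.05 ± 0.11), and in CS at 85.4 to 106 (median 95.8) and 67.5 to 113 (median 88.1). The difference between the genotype effects in PH and in L was -0.58 ± 0.15 (adjusted p = 0.0477), and Dars was the 1 synthetase called for it (1.58% of all tested genes). Leaving out 1 mouse at a time moved that adjusted p from 0.00692 (without mouse 544) to 0.131 (without mouse 554), and the call held in 2 of 12 such fits.

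Gars was lower in HNKO primary hepatocytes by 0.50 ± 0.16 (adjusted p = 0.0344), where the HNKO libraries (169.7 to 264 CPM) all lay below the WT median of 304 but overlapped the WT range from 178. That call held in 7 of 18 alternatives and was lost without mouse 542, 548, 552, 554, 556, 562 or 566. Yars fell by 0.38 ± 0.11 (adjusted p = 0.0271), from 30.2 to 53.6 CPM in WT (median 43.2) to 28.8 to 38.1 in HNKO (median 34.0). Nars2 (chr7:96951505-97064758, plus strand) fell by 0.45 ± 0.13 (adjusted p = 0.0203), from 6.40 to 12.2 CPM (median 10.3) to 6.33 to 8.54 (median 6.97). In each, all 6 HNKO libraries lay below the WT median. Leaving out mouse 554, a WT animal, ended all 3 calls, with adjusted p = 0.117 for Gars, 0.105 for Yars and 0.0744 for Nars2. The call of Yars held in 9 of 18 alternatives and was also lost without mouse 556, 562, 564 or 566. That of Nars2 held in 11 of 18 and was also lost without mouse 548, 552, 556 or 558.

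Wars (chr12:108860030-108894174, minus strand), for tryptophanyl-tRNA synthetase, was the 1 member called higher in HNKO primary hepatocytes in the main edgeR fit. It ran from 24.0 over 34.4 to 41.8 CPM in WT and from 37.1 over 46.4 to 53.4 in HNKO, so all 6 HNKO libraries lay above the WT median, with some overlap. The log2 fold change was 0.42 ± 0.12 (adjusted p = 0.023), and the call held in 10 of 18 alternatives. It was lost without mouse 542, 552, 554, 558 or 566 and with all 36 libraries, no filter or the compared groups alone, with adjusted p from 0.00637 to 0.183 over the 18. In liver, Wars stood at 14.7, 14.7, 16.4, 15.7 and 15.6 CPM in WT and at 13.3 to 19.3 (median 17.9) in HNKO (0.17 ± 0.13). Irf1, a transcription factor and 1 of the 12 interferon-stimulated genes listed, was at 0.09 ± 0.12 between the genotypes in PH. Its mean level was 56.4 CPM in WT liver and 57.9 CPM in WT primary hepatocytes. A link of Wars to interferon was not tested.

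**Figure D4:**
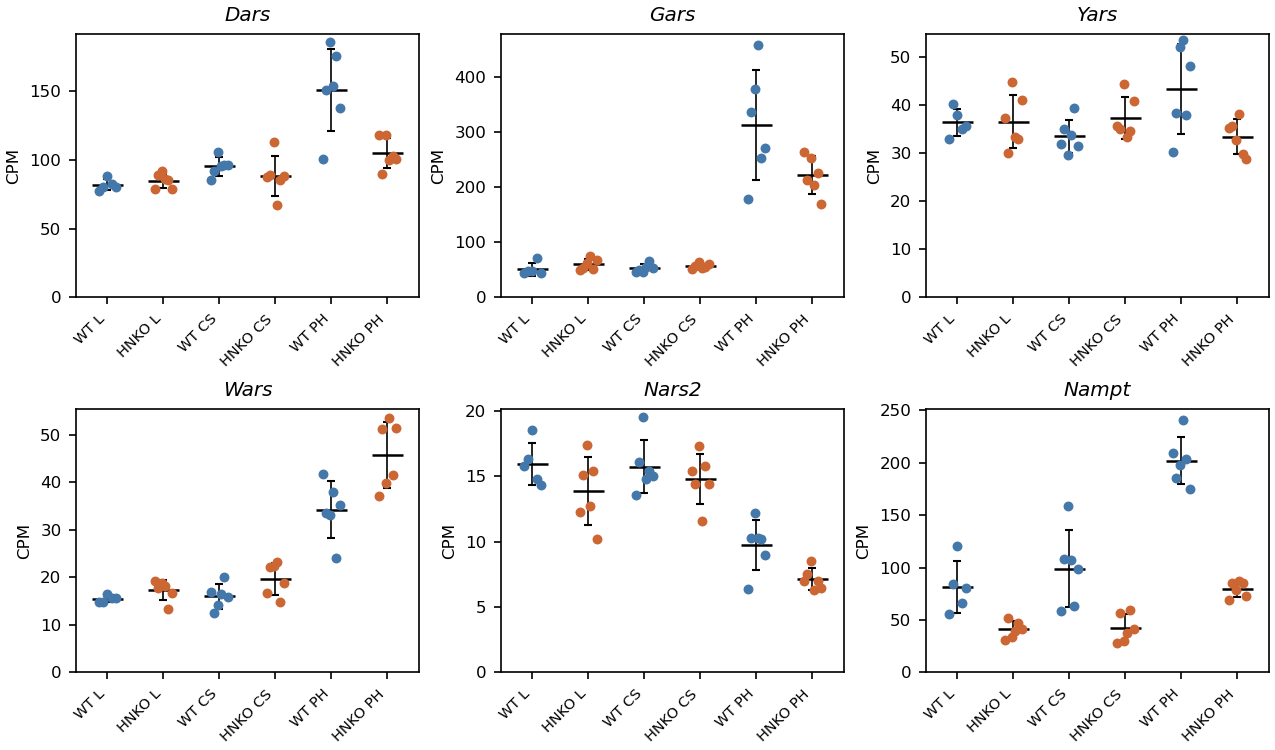
Level in CPM (y axis, from 0) of the 5 synthetases called between HNKO and WT in primary hepatocytes, and of Nampt, in each of the 35 libraries by group (x axis), where points are libraries, horizontal lines means and vertical bars SD. The PH groups of each synthetase overlap, whereas those of Nampt (175 to 241 CPM in WT, 69.1 to 87.3 in HNKO) do not.

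The last comparison asks whether the change from liver to culture differed between the genotypes. The genotype difference of the PH against L change was negative for 16 of 20 cytosolic and 12 of 16 mitochondrial genes, with medians of -0.28 and -0.11, beside 51.2% negative and a median of -0.01 over all tested genes. For HNKO against WT, the cytosolic median was 0.14 in L, with 18 of 20 genes above 0, and -0.11 in PH, with 7 above 0. The cytosolic difference thus holds higher HNKO values in L as well as lower ones in PH. The mitochondrial medians were -0.0 in L and -0.07 in PH. For Gars the genotype difference of PH and L was -0.72 ± 0.23 (adjusted p = 0.0882). Of the 36 members, 12 had an unadjusted p under 0.05 for it (17.9% of all tested genes), with 3 called by DESeq2 (Dars, Gars and Iars). No member was called for the difference of PH and CS (0.221% of all genes), where 8 members and 14.2% of all genes had an unadjusted p under 0.05 and DESeq2 called 0. None was called for that of CS and L by edgeR (0% of all genes), where 2 members and 4.51% of all genes had an unadjusted p under 0.05 and DESeq2 called 0. Without mouse 544, 3 members were called for PH and L and 2 for PH and CS, and Dars lost its call for PH and L in 10 of 12 fits that left out 1 mouse. Markers of the cells moved with genotype in the same cultures, with 6 of 8 hepatocyte markers lower in HNKO primary hepatocytes (Cps1 by 2.85 ± 0.60, Hnf4a by 0.63 ± 0.16). Of 8 stellate and myofibroblast markers, 4 were higher and 1 was lower, beside 5.14% and 7.67% of all tested genes. The summed stellate markers ran from 64.2 to 236 CPM in WT and from 81.2 to 350 CPM in HNKO cultures. Acta2, a defining marker, was at a mean of 0.209 CPM in WT and 2.97 CPM in HNKO. Reln, the marker called lower, was at 29.9 and 12.6 CPM. Their part in the genotype differences of the synthetases was not tested.

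Lars2 (chr9:123366927-123462666, plus strand), for the mitochondrial leucyl enzyme, was unlike the other members. Its pooled SD within groups was 1.11 on the log2 CPM scale, against 0.0965 (Qars) to 0.32 (Tars) for the other 35 genes and a median of 0.3 over all tested genes. WT liver held 149.5, 186, 60.7, 67.3 and 124 CPM. HNKO primary hepatocytes ran from 49.9 over a median of 61.7 to 1051 CPM, where a single library (mouse 562) stood far above the others. The call for PH against L in HNKO (1.73 ± 0.70, adjusted p = 0.0249) came to 0.06 ± 0.56 without that mouse, and to 0.75 (adjusted p = 0.263) with mouse as a block.

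The same libraries were high for RNAs of other genes. The 4 libraries with the most Lars2 held 1051, 490.5, 345 and 292 CPM, and they were also the 4 with the most Gm42418, a noncoding RNA gene that overlaps a ribosomal RNA repeat, at 14755, 7029, 2431 and 4541 CPM. Gm15564, an antisense gene whose transcript shares a stretch of 72 bases at 98.6% identity with a Lars2 transcript, was highest in the same 4 libraries, at 18.7, 20, 7.40 and 6.65 CPM. The part of these sequences in the Lars2 counts was not tested. Lars2 is counted among the 16 mitochondrial genes and in the pairs, with the counts that it decides given there.

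**Figure D5:**
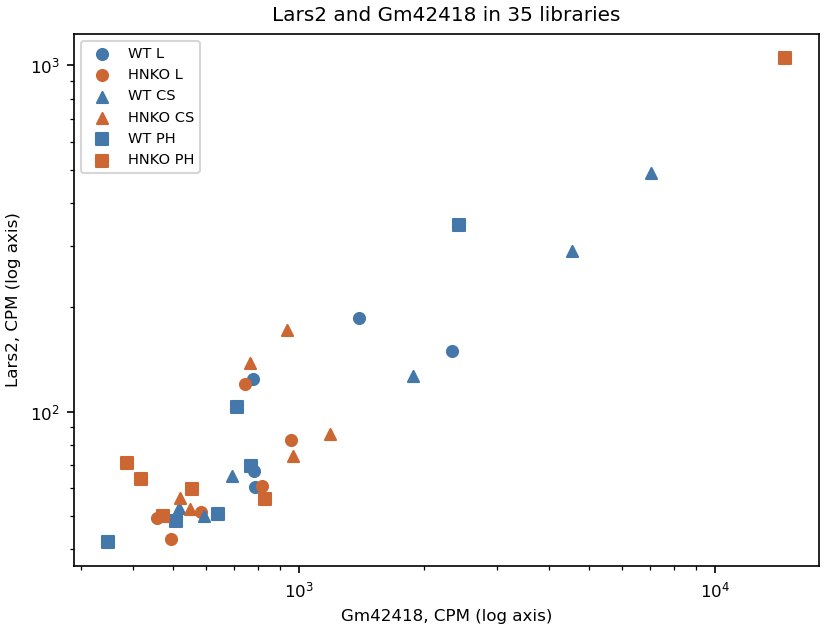
Level of Lars2 (y axis, CPM, log scale) against that of Gm42418 (x axis, CPM, log scale) in the 35 libraries, by genotype (colour) and sample type (shape). The 4 highest libraries for Lars2, from 292 to 1051 CPM, are the 4 highest for Gm42418, from 2431 to 14755 CPM, and the libraries at the lower left lie close together.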

How the data were processed

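RNA of liver, cell suspension and primary hepatocytes was depleted of ribosomal RNA and made into stranded libraries. The authors aligned the reads with STAR 2.7.2b, by the submitters' processing notes, to GRCm38, counted reads per gene with featureCounts 1.6.4, and deposited raw counts per gene and library. The paper names an earlier STAR version.

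Identifiers were matched to symbols of GENCODE M21 (54079 of 54232 matched; the study names another release). Genes passing edgeR's filter (minimum count 10) entered TMM scaling and a quasi-likelihood fit (edgeR 4.0.16, R 4.3.3) of 6 groups over 35 libraries, and the filtered genes held 0.0856% of counts. The fit was also run on counts simulated independently for each library, which could not check the effect of libraries sharing a mouse. Standard errors were the log2 fold change over the root of F, 12 contrasts were tested, and p-values were adjusted over 14932 genes, with a call at an adjusted p under 0.05. Intervals of counting error were not used, as each value rests on replicate mice. Levels per kilobase used the coding transcript with the longest coding sequence. The symbol Ddit3 has more than 1 identifier, and the one with the most counts was used.

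Libraries with the same mouse number came from the same animal by the labels. Deviations from group means correlated with a median of 0.324 (lowest 0.0950) between L and CS, 0.101 (lowest -0.0170) between L and PH and 0.156 (lowest -0.0133) between CS and PH of 1 mouse, over 11, 11 and 12 pairs. The study's methods give no such block, so mouse as a block was an alternative. The others were DESeq2 1.42.0, RLE factors, total counts alone, no filter, all 36 libraries, the compared groups alone, and leaving out each mouse.

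Any member could be named. Values per library were given for members called by genotype and for the 3 with the largest called changes per class and direction in WT, and up to 4 genes by smallest p from each pathway list. Genes with few calls, markers and fallers named besides these were chosen after their values were seen. The members and lists were chosen with earlier results of these data known. Similar transcripts were found with blastn 2.17.0.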

Additional observations from a re-analysis of the deposited data

Results flagged for a closer look

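Of 216 checks of a member in a group of 5 or 6 libraries, 18 had a library far from the others by Dixon's ratio, where chance gives about 5%. Values are in CPM, with the range of the other libraries of the group.

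In WT cell suspension, mouse 558 stood high for Farsa (18.2, others 15.4 to 16.1), Farsb (36.8, others 30.3 to 31.2), Sars (84.1, others 64.7 to 71.5) and Yars2 (15.6, others 11.1 to 12.6). In the same group, mouse 554 was low for Vars (26.1, others 31.0 to 33.9) and high for Iars2 (102, others 83.0 to 89.8) and Pars2 (3.81, others 3.07 to 3.33). In HNKO cell suspension, Fars2 was low in mouse 552 (25, others 32.2 to 34.9) and Wars2 high in mouse 566 (11.4, others 7.46 to 8.86). These 9 of 18 values lay in cell suspension libraries.

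In WT liver, Gars was high in mouse 556 (71.6, others 43.6 to 47.7), Vars low in mouse 544 (25.8, others 28.5 to 29.5), Tars2 low in mouse 564 (23.0, others 28.7 to 30.1) and Wars2 high in mouse 554 (10.0, others 8.03 to 8.57). In WT primary hepatocytes, Qars was high in mouse 556 (123, others 110.1 to 113), and mouse 554 was high for Fars2 (20.3, others 15.1 to 16.9) and for Lars2 (345, others 42.1 to 103). In HNKO primary hepatocytes, mouse 552 was high for Vars (243, others 199 to 214) and mouse 562 for Lars2 (1051, others 49.9 to 71.2).

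The genotype effect on Dars differed between primary hepatocytes and liver by -0.58 ± 0.15 on the log2 scale (adjusted p = 0.0477, edgeR, interaction of genotype and sample type). That call held in 6 of 19 alternatives and in 2 of the 12 that left out 1 mouse. In primary hepatocytes alone, 6 of 6 HNKO libraries lay below the WT median.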

How the results depend on the processing

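Over the alternatives, 81 of 118 called values of single synthetases kept direction and call under all settings run. Total counts alone, which moved the median of all genes to 0.71 and 0.66 for PH against CS (WT, HNKO) and 0.56 and 0.46 for PH against L, turned 10 called falls positive. They were Tars (0.11), Aars2 (0.35), Hars2 (0.45), Rars2 (0.37) and Sars2 (0.05) for PH against CS in WT, Hars2 and Vars2 (0.27 each) in HNKO, Hars2 (0.26) and Sars2 (0.01) for PH against L in WT, and Hars2 (0.10) in HNKO. Below, numbers are synthetases called. For CS against L, DESeq2 gave 1 in WT and total counts 1 in HNKO, where leaving out 1 mouse gave 0 to 1. For HNKO against WT in L, DESeq2 and all 36 libraries gave 1 each, and leaving out 1 mouse gave 0 to 1. Total counts gave 8 there, all higher in HNKO, with the median of all genes at 0.18. For HNKO against WT in PH, all 36 libraries gave 1, no filter 2 and the compared groups alone 0, and leaving out 1 mouse gave 1 to 10. For the genotype difference of PH and L, DESeq2 gave 3, total counts 4, and all 36 libraries, no filter and the compared groups alone 0 each, and leaving out 1 mouse gave 0 to 3 (PH and CS, 0 to 2). Leaving out 1 mouse gave 28 to 31 and 23 to 26 for PH against CS and 27 to 30 and 24 to 29 for PH against L in WT and HNKO. The causes were not tested.

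With mouse as a replicate block, the counts were 0 and 0 for CS against L, 31 and 26 for PH against CS, 28 and 27 for PH against L in WT and HNKO, and 0, 1 and 0 for the genotype differences of CS and L, PH and L and PH and CS. The block ended 1 call (Lars2, PH against L in HNKO) and added 1 (Mars1 in the same comparison, 0.25, adjusted p = 0.0114).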
